A study of Mus musculus with 4 samples.

Results

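Endothelial junction genes encode the proteins that seal neighbouring endothelial cells of brain vessels to each other. The 7 genes described here are Cldn5, Ocln, Tjp1, Cdh5, Esam, Jam2 and Pecam1, taken by name from the 41862 gene columns of the study. Their RNA was compared between naive mice and mice in the peak phase of EAE (experimental autoimmune encephalomyelitis, used to model multiple sclerosis), in barcodes with an endothelial profile. Under the main settings none of the 7 genes was 1.5-fold apart between the states. Cdh5 was past 1.5-fold lower in EAE under some alternative settings, which are given at the end. In the TRAIL- libraries Cdh5 and Cldn5 were lower in EAE, at 0.702 and 0.775 of the naive level, and Ocln, Tjp1, Jam2 and Pecam1 were within 10% of it. Against the smaller naive TRAIL+ library Cdh5 was at 0.676 (interval 0.497 to 0.936) and Cldn5 at 0.920 with an interval that included 1. Pecam1 was at 1.41 against it, with an interval of 1.03 to 1.98.

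The C57BL6 mice, from whose central nervous system the cells were taken, carried the Aldh1l1CreERT2-TdTomato reporter, in which an astrocyte gene promoter drives an inducible Cre. TdTomato+ cells positive for the lysosomal protein LAMP1 at their surface were sorted into TRAIL- and TRAIL+ fractions, TRAIL being a death ligand, and captured by inDrops, a droplet method that counts RNA molecules by unique molecular identifiers (UMIs). EAE had been induced with 150 µg of a MOG peptide in complete Freund's adjuvant, and the series gives 3 naive and 3 EAE mice. Each of the 4 groups (naive TRAIL-, EAE TRAIL-, naive TRAIL+ and EAE TRAIL+) was 1 library, and the sources used here do not give the age of the mice or say whether mice were pooled. There is no replicate, so no difference could be tested against the spread between animals. Every interval below is an exact 95% interval that covers counting error only.

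A barcode was counted as endothelial when Flt1, Itm2a, Slco1a4 and Ly6c1 together made up at least 0.5% of its UMIs, with at least 500 UMIs and at most 20% mitochondrial UMIs. This held for 1129 of 2259 passing barcodes in naive TRAIL- (49.98%) and 476 of 1597 in EAE TRAIL- (29.8%). In naive TRAIL+ it held for 53 of 2229 barcodes, and in EAE TRAIL+ for 3 of 1814. The main comparison is therefore that of the TRAIL- libraries, with the 53 naive TRAIL+ barcodes as a further naive fraction. The naive libraries are sort fractions of the same state and may come from the same mice, so they are not replicates. The samples are labelled as astrocytes, but 9 astrocyte markers summed to 152 UMIs per 1000000 (CPM) in the naive and 115 CPM in the EAE TRAIL- endothelial barcodes, and to 178 CPM in those of naive TRAIL+. Of these 9 markers 8, 8 and 5 were detected in the same order, with the water channel gene Aqp4 at 0 in all 3 libraries. A gate on 8 other endothelial genes, among them Ptprb and Egfl7, also took 89.5% of the naive and 89.7% of the EAE TRAIL- endothelial barcodes.

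Between 2803 and 3703 barcodes were listed per library, with 2856696 to 3984975 UMIs. Endothelial barcodes had a median of 898 UMIs in the naive and 1052.5 in the EAE TRAIL- library, and of 957 in naive TRAIL+. The naive and EAE libraries also differed in sex-linked RNA. In endothelial barcodes the Y-linked gene Ddx3y was at 110 CPM in the naive and 5.58 CPM in the EAE TRAIL- library, while Xist was at 2.76 and 214 CPM. Disease state and sex therefore cannot be told apart in these libraries. The TRAIL- libraries shared 81 barcode names, 2 of them endothelial in both. Between 68 and 114 names were shared by each of the other pairs of libraries.

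At the blood-brain barrier, endothelial cells are joined by tight junctions and adherens junctions. Claudin-5 (Cldn5) strands close the space between cells to small molecules, occludin (Ocln) sits in the same strands, and the scaffold protein of Tjp1 ties them to actin. VE-cadherin (Cdh5) holds the adherens junction through beta-catenin. Esam, Jam2 and Pecam1 are immunoglobulin-type adhesion molecules of the cell border that leukocytes meet when they cross the vessel wall. In EAE, leukocytes enter the central nervous system through such vessels.

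Promoter sequence from RefSeq (GRCm38.p6) was at hand for 3 of the 7 genes, in 4 entries. These 3 genes are shown because sequence was at hand, not for their ratios, and Cdh5, which had the lowest ratio, is not among them. A single window is shown for each gene. Each is the 250 bases before the start site, 5′ to 3′ on the gene's strand, with capitals marking GGAA (the core of ETS factor motifs), CTTTG (of TCF/LEF factors) and CACCC (of KLF factors) on either strand. No matches overlap in these windows. Cldn5 is at chr16:18776597-18776846 (+ strand), Ocln, from its upstream start, at chr13:100552719-100552968 (- strand) and Tjp1, from a start inside the gene's annotated span, at chr7:65371245-65371494 (- strand).
Cldn5: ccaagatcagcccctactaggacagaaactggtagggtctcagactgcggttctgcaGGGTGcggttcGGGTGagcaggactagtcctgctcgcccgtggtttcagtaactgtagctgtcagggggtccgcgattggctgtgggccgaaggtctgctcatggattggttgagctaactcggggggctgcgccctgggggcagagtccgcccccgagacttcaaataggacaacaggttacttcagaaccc
Ocln: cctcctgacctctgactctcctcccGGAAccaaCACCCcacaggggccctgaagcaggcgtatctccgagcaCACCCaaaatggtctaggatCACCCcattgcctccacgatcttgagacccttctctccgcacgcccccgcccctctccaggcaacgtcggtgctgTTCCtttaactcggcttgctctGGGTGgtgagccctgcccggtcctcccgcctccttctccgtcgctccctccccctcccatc
Tjp1: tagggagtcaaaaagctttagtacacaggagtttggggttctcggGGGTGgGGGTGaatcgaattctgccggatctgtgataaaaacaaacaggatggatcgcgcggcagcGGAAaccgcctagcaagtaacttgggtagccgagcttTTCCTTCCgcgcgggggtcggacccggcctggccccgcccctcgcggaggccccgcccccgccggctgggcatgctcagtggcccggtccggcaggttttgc

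The Cldn5 window held no GGAA and 2 CACCC matches, both on the other strand. The Ocln window held 2 GGAA matches and 4 CACCC matches, while that of a downstream Ocln start (chr13:100552499-100552748) held 1 GGAA and no CACCC match, and the Tjp1 window 3 GGAA and 2 CACCC matches. No CTTTG match was found in these 4 windows. Of all 32851 promoter windows of this length, 93.4% held GGAA, 48.6% CTTTG and 52.0% CACCC. A match is a run of letters and not a binding site, and any relation of the matches to the ratios was not tested.

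The tight-junction genes came first in the comparison of EAE with naive TRAIL- endothelial barcodes. Cldn5 (chromosome 16, 18776847 to 18778262, GRCm38) stood at 6120 CPM (Poisson interval 5973 to 6268) in naive TRAIL-, 5154 CPM in naive TRAIL+, with 4744 CPM (4561 to 4931) in EAE TRAIL-. The naive TRAIL- library was the high one, and the intervals of the TRAIL- libraries did not overlap. The EAE to naive ratio was 0.775 (Clopper-Pearson interval 0.740 to 0.811), a level 22.5% lower. Against naive TRAIL+ as the naive library the ratio was 0.920 (0.815 to 1.04), which includes no difference. The naive fractions themselves differed, with naive TRAIL+ at 0.842 (0.746 to 0.948) of naive TRAIL-.

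Ocln (chromosome 13, 100496507 to 100552718) was at 416 CPM in naive TRAIL-, 374 CPM in naive TRAIL+, with 420 CPM in EAE TRAIL-. The 3 libraries overlapped, and the ratio of EAE to naive TRAIL- was 1.01 (0.857 to 1.19). Tjp1 (chromosome 7, 65296165 to 65527781) was at 489, 481 and 444 CPM in the same order. Its ratio of 0.909 (0.777 to 1.06) also included no difference. The Ocln interval lay above that of Cldn5 (0.740 to 0.811), and the Tjp1 interval overlapped it.

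Cdh5, the adherens-junction cadherin gene (chromosome 8, 104101625 to 104144511), was at 824 CPM (771 to 880) in naive TRAIL-, 856 CPM in naive TRAIL+ but 578 CPM (516 to 646) in EAE TRAIL-. EAE was the low library, and its interval lay below that of naive TRAIL-. The ratio was 0.702 (0.615 to 0.800) against naive TRAIL- and 0.676 (0.497 to 0.936) against naive TRAIL+. Cdh5 alone of the 7 genes was lower than both naive libraries with intervals below 1. The share of all genes for which this held was not counted, and both ratios use the same EAE library. The naive libraries are fractions that may come from the same mice, so the ratios do not replicate each other. Between the naive fractions the Cdh5 ratio was 1.04 (0.760 to 1.39).

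The border adhesion molecules differed less. Esam (chromosome 9, 37528078 to 37538319) was at 1878 CPM in naive TRAIL-, 1855 CPM in naive TRAIL+, with 1616 CPM in EAE TRAIL-, a ratio of 0.860 (0.794 to 0.932) to naive TRAIL- and of 0.871 (0.710 to 1.08) to naive TRAIL+. Jam2 (chromosome 16, 84774123 to 84825928) was at 374, 339 and 398 CPM in the same order, and its ratio to naive TRAIL- was 1.06 (0.898 to 1.26). Pecam1 (chromosome 11, 106654217 to 106750628) was at 1076 CPM in naive TRAIL-, 749 CPM in naive TRAIL+, with 1056 CPM in EAE TRAIL-. For Pecam1 the naive TRAIL+ library was the low one, so the ratio was 0.982 (0.886 to 1.09) to naive TRAIL- and 1.41 (1.03 to 1.98) to naive TRAIL+.

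**Figure D1:**
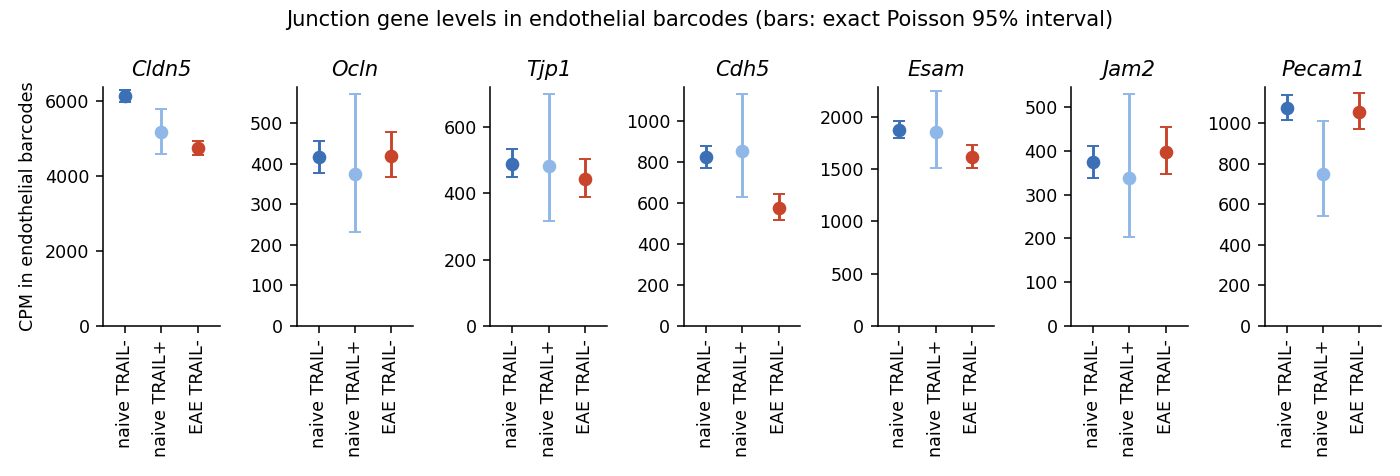
Level of each junction gene (CPM, axes from 0) in endothelial barcodes of naive TRAIL-, naive TRAIL+ and EAE TRAIL-, with exact Poisson 95% intervals. Cdh5 was lowest in EAE TRAIL- at 578 CPM, while Cldn5 was highest in naive TRAIL- at 6120 CPM and Pecam1 lowest in naive TRAIL+ at 749 CPM.

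Of the 3642 genes that averaged 50 CPM or more in these barcodes, 9.09% were higher and 12.6% lower in EAE by 1.5-fold or more. All 7 junction genes averaged over 300 CPM, and of the 524 genes at that level 5.73% were 1.5-fold higher and 5.34% lower. The count of 0 junction genes past the fold in either direction is thus what most genes of that level showed. The counting interval lay below 1 for 3 of the 7 (Cldn5, Cdh5 and Esam) and for 29.6% of the 524 genes. It lay above 1 for 0 of the 7 and for 29.4% of the 524. In rank, 8.78% of the 524 genes had a ratio as low as that of Cdh5 or lower, and 15.5% as low as that of Cldn5. The median log2 ratio of the 7 genes was that of Tjp1, -0.14, against -0.01 over the 524 genes.

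The same background was read for the comparisons with naive TRAIL+, in which 0 of the 7 genes were past 1.5-fold. Of 512 genes, 12.5% were 1.5-fold higher and 11.7% lower in EAE TRAIL- than in naive TRAIL+, and of 537 genes 7.45% were higher and 7.82% lower in naive TRAIL+ than in naive TRAIL-. Intervals below 1 were found for 1 of the 7 genes in EAE TRAIL- against naive TRAIL+ (17.8% of 512 genes) and for 2 of the 7 in naive TRAIL+ against naive TRAIL- (9.5% of 537). Intervals above 1 were found for 1 of the 7, Pecam1, in the first (15% of genes) and for 0 in the second (13.4%). The comparisons share libraries and are not independent of each other. Cldn5 thus differed beyond counting error between the naive fractions as well as between EAE TRAIL- and naive TRAIL-. Between EAE TRAIL- and naive TRAIL+ its interval included 1. The Cdh5 interval between the naive fractions also included 1.

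**Figure D2:**
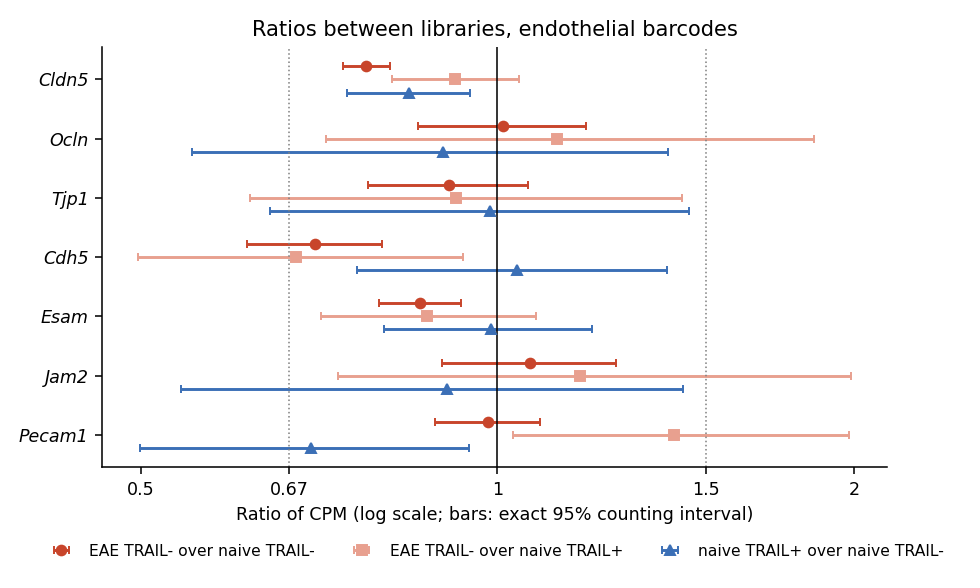
Ratios of CPM between libraries (log axis) for each junction gene in endothelial barcodes, with exact 95% counting intervals and dotted lines at 1.5-fold. Cdh5 in EAE was below 1 against both naive libraries (0.702 and 0.676), and Cldn5 was below 1 in EAE and in naive TRAIL+ when each was set against naive TRAIL- (0.775 and 0.842).

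Together the 7 genes gave 12143 UMIs in naive and 4978 in EAE TRAIL- endothelial barcodes, or 11176 and 9257 CPM. The ratio of the sums was 0.828 (0.801 to 0.856), and 0.893 (0.851 to 0.936) without Cldn5. Within this total, which no library scaling changes, Cldn5 made up 54.8% (53.9 to 55.6) of the naive TRAIL-, 51.2% (49.8 to 52.6) of the EAE TRAIL- and 52.5% (48.3 to 56.8) of the naive TRAIL+ UMIs. Pecam1 went from 9.63% (9.11 to 10.2) in naive to 11.4% (10.54 to 12.3) in EAE TRAIL-, and Cdh5 from 7.37% (6.91 to 7.85) to 6.25% (5.59 to 6.96).

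The UMIs were unevenly spread over barcodes. In naive TRAIL- the 452 Ocln UMIs lay in 236 barcodes and the 531 Tjp1 UMIs in 253, about 1.92 and 2.10 UMIs per positive barcode. With every barcode thinned to 500 UMIs, the variance of the counts was 1.39 to 2.09 times their mean in naive TRAIL- and 1.10 to 1.98 times in EAE TRAIL-. Counting intervals, which take UMIs as independent, are therefore too narrow. The share of barcodes with a UMI does not count such repeats.

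At 500 UMIs per barcode, a Cldn5 UMI was found in 88.9% (87.0 to 90.7) of naive and 81.3% (77.5 to 84.7) of EAE TRAIL- endothelial barcodes, and these intervals did not overlap. Before thinning the shares were 96.3% and 93.1%. The median thinned barcode held 3 Cldn5 UMIs in naive and 2 in EAE, and 38.6% against 26.3% of barcodes held at least 4. For Cdh5 the thinned shares were 29.1% (26.4 to 31.8) and 23.3% (19.6 to 27.4), and for Esam 52.1% (49.1 to 55.0) and 46.2% (41.7 to 50.8). Both pairs of intervals overlapped, and the difference between the shares was not tested. The thinned UMIs gave log2 ratios of EAE to naive of -0.58 (-0.86 to -0.29) for Cdh5 and -0.22 (-0.39 to -0.06) for Esam. Pecam1 was found in 31.6% and 32.98%, Tjp1 in 15.4% and 15.8%, Ocln in 14.1% and 12.2% and Jam2 in 11.6% and 13.0% of naive and EAE barcodes.

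Outside endothelial barcodes most of the 7 genes were scarce. Over all other passing barcodes, Cldn5 was at 196 CPM (naive) and 66.6 CPM (EAE) in the TRAIL- libraries, 31.3-fold (28.0 to 35.1) and 71.2-fold (59.8 to 85.4) below the endothelial level. Cdh5 was at 43.3 and 13.9 CPM there, Pecam1 at 72.8 and 35.3 CPM and Ocln at 22.9 and 17.9 CPM. Jam2 was at 63.8 and 20.9 CPM, 5.86-fold (4.72 to 7.32) and 19.1-fold (13.6 to 27.2) below the endothelial level. In naive TRAIL- Esam was 6.15-fold and Tjp1 2.96-fold below it. In barcodes with at least 1% of UMIs from pericyte markers such as Rgs5 and Vtn, a thinned Cldn5 UMI was found in 2.58% (naive) and 0.436% (EAE), at median depths of 798 and 970 UMIs. The EAE to naive ratio of Cldn5 in these barcodes was 0.169 (0.058 to 0.411), on 31 naive and 6 EAE UMIs. Ocln, Cdh5, Jam2 and Pecam1, with 10 UMIs or fewer per library there, had intervals that included 1.

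Esam and Tjp1 were the exceptions in pericyte-marker barcodes. Esam reached 937 CPM in naive and 875 CPM in EAE pericyte-marker barcodes, in 27.0% and 31.4% of which a thinned UMI was found. The EAE to naive ratio there was 0.933 (0.812 to 1.07). Tjp1 was at 320 and 378 CPM in the same barcodes, a ratio of 1.18 (0.940 to 1.48). In neither gene did these 503 naive and 459 EAE barcodes show a difference beyond counting error.

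In microglia-marker barcodes (at least 1% of UMIs from genes such as Csf1r and C1qb), the TRAIL+ libraries had the most barcodes, 1981 naive and 1696 EAE. Intervals lay below 1 there for 5 of the 7 genes, namely Tjp1, Jam2, Pecam1, Ocln and Cldn5, and above 1 for none. Of all 22620 genes with over 3 UMIs there, 8.62% had an interval below 1 and 12.7% one above it. Of the 6290 genes of at least 20 CPM, to which Tjp1, Jam2 and Pecam1 belong, 23.5% lay below and 23.3% above. Tjp1 was at 169 CPM in naive and 108 CPM in EAE TRAIL+, a ratio of 0.639 (0.559 to 0.730). Jam2 was at 60.5 and 23.1 CPM, a ratio of 0.382 (0.291 to 0.497), and Pecam1 at 38.5 and 25.1 CPM, a ratio of 0.652 (0.490 to 0.864). Ocln had 26 and 13 UMIs, a ratio of 0.472 (0.223 to 0.953), and Cldn5 30 and 0 UMIs, from 9.17 CPM in naive. Endothelial barcodes of these libraries numbered 53 in naive and 3 in EAE TRAIL+. The part of endothelial RNA in the Cldn5 counts was not tested. In TRAIL- microglia-marker barcodes the ratios were 0.637 (0.449 to 0.898) for Tjp1, 0.339 (0.188 to 0.587) for Jam2 and 0.825 (0.468 to 1.45) for Pecam1. Cldn5 was there at 0.387 (0.213 to 0.680), on 42 naive and 19 EAE UMIs, and Cdh5 at 0.156 (0.017 to 0.713), on 11 and 2. Esam was at 0.513 (0.229 to 1.10) and Ocln at 1.37 (0.395 to 5.32). Endothelial barcodes were 49.98% of passing barcodes in naive and 29.8% in EAE TRAIL-, and their part in these values was not tested. In naive TRAIL+ microglia-marker barcodes Cldn5 had 30 UMIs and Jam2 198, while in endothelial barcodes of that library Cldn5 had 289 and Jam2 19. The endothelial counts rest on 53 barcodes, and the source of the Jam2 RNA in microglia-marker barcodes was not tested.

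**Figure D3:**
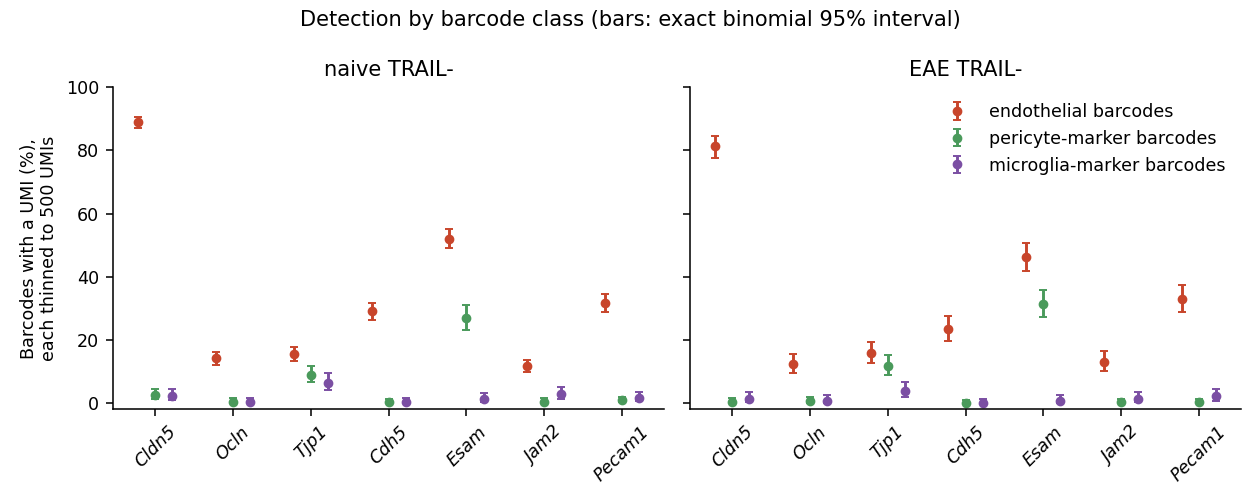
Share of barcodes with a UMI of each gene after thinning to 500 UMIs, by barcode class, in naive TRAIL- (left) and EAE TRAIL- (right), with exact binomial 95% intervals. Endothelial barcodes were highest for every gene, with Cldn5 at 88.9% and 81.3%, and pericyte-marker barcodes carried Esam at 27.0% and 31.4%.

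Endothelial barcodes were deeper in EAE: 44.3% of them had 500 to under 1000 UMIs, against 63.1% in naive TRAIL-. Within that range the Cldn5 ratio was 0.712 (0.659 to 0.768), in barcodes of 1000 to under 2000 UMIs it was 0.868 (0.815 to 0.925), and in the 19 EAE and 16 naive barcodes of 2000 UMIs or more it was 0.978 (0.800 to 1.20). Naive Cldn5 went from 6950 CPM in the shallowest range to 5333 and 4925 CPM in the deeper ones, while EAE stayed between 4631 and 4949 CPM. The Cdh5 ratio was below 1 in every range, at 0.650 (0.512 to 0.816), 0.773 (0.648 to 0.919) and 0.448 (0.260 to 0.752).

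Esam had a ratio of 0.709 (0.613 to 0.817) in the shallowest range, 0.991 (0.890 to 1.10) in the middle and 0.918 (0.636 to 1.33) in the deepest, and the difference between ranges was not tested. Ocln pointed both ways, with a ratio of 0.648 (0.468 to 0.880) in the shallowest range and 1.32 (1.06 to 1.64) in the middle one. Over all endothelial barcodes it was 1.01. Tjp1, Jam2 and Pecam1 had intervals that included 1 in all 3 ranges. The part of depth in the Cldn5, Esam and Ocln values was not tested.

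Brain endothelial cells differ along the vessel, from arteries through capillaries to veins. Barcodes were placed in a range by which of the arterial, capillary and venous marker lists gave most UMIs. These are ranges of marker counts rather than cell types. The lists were not scaled for their level. In naive TRAIL- endothelial barcodes the capillary list summed to 11781 CPM, the arterial to 1900 and the venous to 886 CPM. In EAE TRAIL- the sums were 9833, 1819 and 1125 CPM. Placing thus favours the capillary list and can differ with state, and the part of this in the ratios was not tested. The capillary range held 1010 naive and 407 EAE barcodes (89.5% and 85.5%), the arterial range 78 and 38, and the venous range 17 and 20. In the capillary range Cldn5 was at 6293 and 4714 CPM, a ratio of 0.749 (0.713 to 0.787), and Cdh5 at 808 and 516 CPM, a ratio of 0.639 (0.550 to 0.740). Cdh5 was there just past 1.5-fold.

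In the arterial range Cldn5 was at 4708 CPM in naive and 4925 CPM in EAE, a ratio of 1.05 (0.883 to 1.24), and Cdh5 had a ratio of 0.923 (0.618 to 1.36). Ocln in that range was at 230 CPM (18 UMIs) in naive and 583 CPM (27 UMIs) in EAE, a ratio of 2.54 (1.35 to 4.90). Jam2 there was at 204 CPM (16 UMIs) and 518 CPM (24 UMIs), with the same ratio of 2.54 (1.29 to 5.12). Whether the ratios differ between the arterial and capillary ranges was not tested. In the venous range Cldn5 had a ratio of 0.970 (0.738 to 1.28) on 94 naive and 129 EAE UMIs, and Cdh5 one of 1.32 (0.681 to 2.66) on 15 and 28 UMIs. Both venous intervals include 1, and all ratios outside the capillary range rest on few barcodes.

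**Figure D4:**
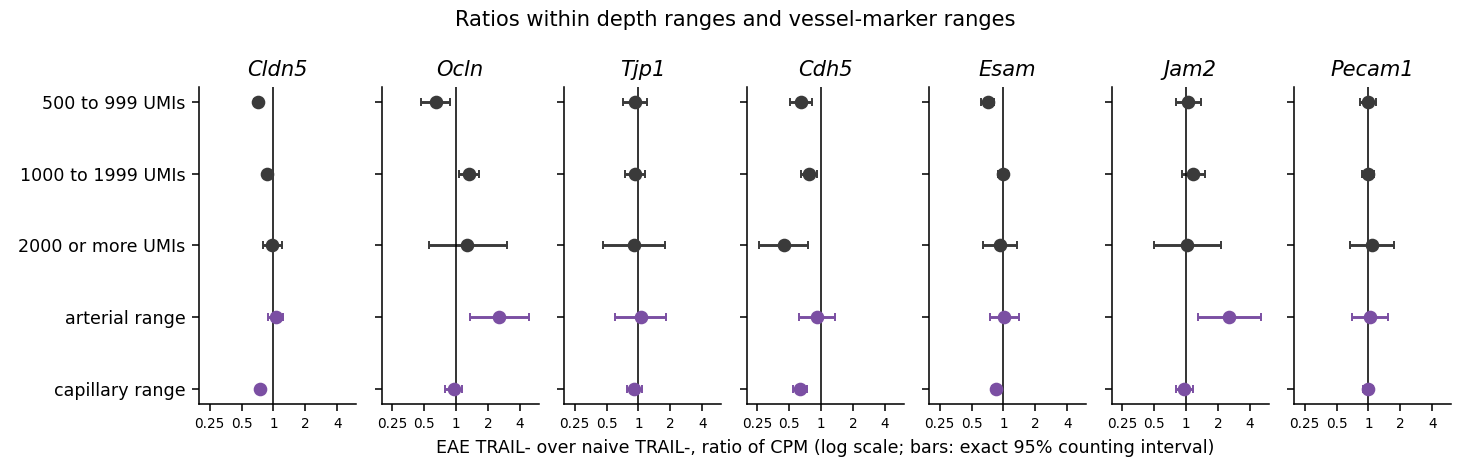
Ratio of EAE to naive TRAIL- CPM (log axis) for each gene within 3 depth ranges (black) and 2 vessel-marker ranges (purple) of endothelial barcodes, with exact 95% counting intervals. The Cldn5 ratio was 0.712, 0.868 and 0.978 from the shallowest to the deepest range, and Ocln was 0.648 in the shallowest and 2.54 in the arterial range.

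Other genes of the junction were taken from 4 lists (tight junction, adherens junction, adhesion and transmigration, gap junction). Of their 64 genes besides the 7, 30 had at least 50 CPM. In EAE 3 of these were higher and 3 lower by 1.5-fold, with 24 between. The background was 9.09% higher and 12.6% lower. Their median log2 ratio was -0.16, against -0.05 over all 3642 genes. Of the 10 tight-junction genes, 2 were lower and none was higher. These were Mpp5, a polarity scaffold gene, at 83.8 CPM in naive and 29.8 CPM in EAE (ratio 0.355, 0.195 to 0.608), and the angiomotin-like gene Amotl1 at 124 and 70.7 CPM (0.569, 0.386 to 0.820). Mpp5 reached the mean of 50 CPM only through its naive level, so its entry and its call as lower are linked. Against naive TRAIL+ the ratios of Mpp5 and Amotl1 were 0.417 (0.135 to 1.71) and 0.440 (0.209 to 1.04), both including 1. Lsr, which encodes a protein of tricellular junctions, was at 506 and 651 CPM (1.29, 1.12 to 1.47), F11r, the JAM-A gene, at 490 and 389 CPM (0.794, 0.673 to 0.933) and Ybx3 at 267 and 192 CPM (0.718, 0.567 to 0.901).

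Of 13 adherens-junction genes, 1 was past the fold. Ctnnb1, the beta-catenin gene, whose protein binds VE-cadherin and also carries the Wnt signal, was at 1507 CPM in the naive and 997 CPM in the EAE TRAIL- library, a ratio of 0.662 (0.599 to 0.730). In naive TRAIL+ it was at 1587 CPM, and EAE stood at 0.628 (0.501 to 0.795) of that. Ptprb, the phosphatase gene that acts on VE-cadherin, had a ratio of 0.907 (0.828 to 0.993), Ctnna1, the alpha-catenin gene, one of 1.14 (0.966 to 1.34) and Heg1 one of 0.807 (0.694 to 0.936). The gap-junction genes Gja1 and Gjc1 were at 0.785 (0.530 to 1.14) and 0.794 (0.604 to 1.04). Gja1 is also among the 9 astrocyte markers. It was at 94.8 CPM in naive and 74.4 CPM in EAE TRAIL-, beside marker sums of 152 and 115 CPM.

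Of 6 adhesion and transmigration genes, 3 were higher in EAE and none was lower. Icam1, a ligand of leukocyte integrins, was at 86.5 CPM in naive and 201 CPM in EAE TRAIL-, a ratio of 2.32 (1.74 to 3.09). Vcam1, another integrin ligand, was at 76.4 and 138 CPM (1.80, 1.30 to 2.49) and Cd99l2 at 38.7 and 65.1 CPM (1.68, 1.04 to 2.70). Cd99l2 reached the mean of 50 CPM only through its EAE level, so its entry and its call as higher are linked. Against naive TRAIL+, with 6, 8 and 4 UMIs of these genes, the ratios were 1.88 (0.835 to 5.23), 0.965 (0.465 to 2.32) and 0.912 (0.326 to 3.53), none beyond counting error. Icam2 had a ratio of 1.07 (0.886 to 1.30) and Bcam one of 1.09 (0.920 to 1.29).

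The list of Wnt and barrier regulators had 33 genes at 50 CPM or more, of which 12 were at least 1.5-fold lower and none was higher, beside 12.6% lower and 9.09% higher over all genes. Its median log2 ratio was -0.36. Nkd1, an inhibitor and target of Wnt signalling, was at 429 CPM in naive TRAIL-, 446 CPM in naive TRAIL+ but 151 CPM in EAE TRAIL-, with ratios of 0.351 (0.274 to 0.445) and 0.338 (0.213 to 0.552) to the naive libraries. Kdr, the main VEGF receptor gene of endothelium, was at 1900, 1480 and 1021 CPM, with ratios of 0.537 (0.488 to 0.591) and 0.690 (0.547 to 0.880). Klf2, a flow-responsive transcription factor gene, was at 6276, 5689 and 3849 CPM, with ratios of 0.613 (0.584 to 0.644) and 0.677 (0.601 to 0.764). In these 3 genes EAE was lower than both naive libraries with intervals below 1.

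The Wnt co-receptor gene Lrp6 (0.474, 0.300 to 0.726), Vegfc (0.429, 0.238 to 0.731) and Sox7 (0.632, 0.526 to 0.755) were also lower than in naive TRAIL-, but against naive TRAIL+ their intervals included 1. Vegfc, at 73.6 CPM in naive and 31.6 CPM in EAE TRAIL-, reached the mean of 50 CPM only through its naive level. Sox7 was at 474 CPM in the TRAIL- and 196 CPM in the TRAIL+ naive library, with EAE at 299 CPM between them. The other 6 past the fold, named after their values were seen, were Ctnnb1, Axin2, Tnfrsf19, Erg, Ets1 and Foxo1, at ratios of 0.642 to 0.664. Against naive TRAIL+, Erg was at 0.289 (0.175 to 0.494), while Tnfrsf19 was at 2.07 (0.923 to 5.75), Axin2 at 1.18 (0.516 to 3.33), Ets1 at 1.02 (0.632 to 1.72) and Foxo1 at 0.880 (0.523 to 1.58). Of the 12 genes, 5 thus had intervals below 1 against both naive libraries (Nkd1, Kdr, Klf2, Ctnnb1 and Erg). The share of all genes for which this held was not counted. The 12 had been called as lower against naive TRAIL-, and both ratios use the same EAE library. The naive libraries are fractions that may come from the same mice, and are not replicates. Of the most abundant genes not past it, the Wnt target Apcdd1 had a ratio of 0.668 (0.611 to 0.730), Klf4 one of 0.859 (0.812 to 0.909) and Foxq1 one of 0.903 (0.823 to 0.991).

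**Figure D5:**
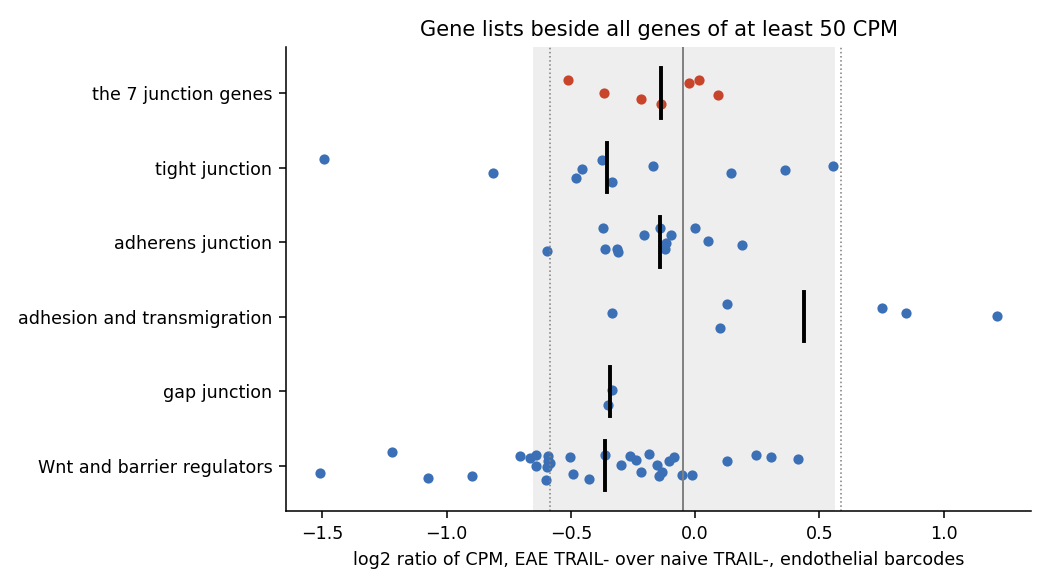
The log2 ratio of EAE to naive TRAIL- CPM in endothelial barcodes for the 7 junction genes (red) and the other listed genes of at least 50 CPM (blue), with list medians as black bars. The grey band spans the 10th to 90th percentile of all 3642 genes, the grey line is their median of -0.05, and dotted lines mark 1.5-fold; vertical scatter within a row has no meaning.

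The gate gene Ly6c1 itself was at 1801 CPM in naive and 3617 CPM in EAE TRAIL- endothelial barcodes, a ratio of 2.01 (1.88 to 2.14). The other gate genes were lower in EAE, Itm2a at 0.761 (0.723 to 0.802), Flt1 at 0.858 (0.822 to 0.895) and Slco1a4 at 0.933 (0.872 to 0.998). UMIs of these genes select the barcodes, so their ratios depend on the gate. Without Ly6c1 UMIs 34 naive and 43 EAE barcodes would not have passed it. Without Ly6c1 in the gate the log2 ratio was -0.36 for Cldn5 and -0.59 for Cdh5, which put Cdh5 just past 1.5-fold. Near the gate, 24 naive and 15 EAE barcodes had a gate share of 0.4 to 0.5%, and 22 and 16 one of 0.5 to 0.6%. The 7 genes summed to 7199 CPM in naive and 5797 CPM in EAE barcodes with a share of 0.25 to 0.5%, and to 9587 and 8646 CPM in those of 0.5 to 1%.

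Markers of other cell types were present at low levels in endothelial barcodes. All 10 pericyte markers were detected, summing to 752 CPM in naive and 614 CPM in EAE TRAIL-, against 9452 and 8656 CPM in the other barcodes. Microglia markers summed to 425 and 411 CPM. Monocyte and macrophage markers summed to 25.8 CPM in naive, with Ccr2 and Pf4 among 4 of 11 at 0, and to 337 CPM in EAE, with 2 of 11 at 0. Choroid plexus markers summed to 708 and 324 CPM. In the 1094 naive and 463 EAE barcodes that had less than 1% of UMIs from each other cell type's markers, the log2 ratio was -0.38 for Cldn5 and -0.51 for Cdh5, as against -0.37 and -0.51 in all.

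Genes with a pattern most like each junction gene were found over 13 sums of barcode classes by library, as the Pearson correlation of log2(CPM + 10). These sums share libraries and are dominated by the contrast of endothelial with other barcodes. Spock2 was most like Cldn5 (r = 0.980), followed by Wfdc1 and Abcb1a. Mmrn2 (0.990), Kdr and Rasip1 were most like Cdh5, and Cyyr1 (0.994), Palmd and Tshz2 most like Ocln. Foxf2 (0.991), Tbx3 and Cxcl12 were most like Esam, and Fgd5 (0.985), Slc7a5 and Jag2 most like Pecam1. The values were lower for Tjp1, led by Eng (0.956), Zbtb4 and Ets1, and for Jam2, led by Plpp1 (0.952), Ceacam1 and Adamts1.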

How the data were processed

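The deposited tables hold UMI counts per barcode and gene, not normalized by the authors and listed down to 100 UMIs per barcode, per the file headers and values. Libraries were made by inDrops, per the labels' protocols, after filtering at 70 µm and 30% Percoll. Bowtie and GRCm38 are named in the submitters' processing notes; the sources used here give neither the version nor the annotation. Gene positions are from GENCODE on GRCm38, in which 98.8% of gene symbols matched.

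Counts were summed over barcodes and divided by total UMIs (CPM). Ratios have exact Clopper-Pearson and levels exact Poisson 95% intervals (scipy 1.17.1, Python 3.11.15), for counting error only. With 1 library per group no test was possible. A gene past 1.5-fold, with a mean of at least 50 CPM, was called. Doublets were called with Scrublet (scanpy 1.11.5, expected rate 5%) in an alternative only: 21 naive and 10 EAE TRAIL- endothelial barcodes. TMM (edgeR 4.0.16) and DESeq2 1.42.0 size factors were alternative scalings.

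The 7 genes, lists and rules were chosen with earlier results of these data known. Named list genes were up to 6 past the fold by size and up to 3 others by level, and the 3 most alike per junction gene. Cldn25, Pals1 and Cd99 had no gene column of that name. Pals1 is another name of Mpp5, which had a column.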

Additional observations from a re-analysis of the deposited data

How the results depend on the processing

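No paired analysis was possible because each group is 1 library and the labels carry no replicate numbers. The Cdh5, Tjp1 and Jam2 ratios stayed inside the counting intervals given in the report under all 14 alternatives, with log2 ratios of -0.66 to -0.44 for Cdh5, -0.35 to -0.10 for Tjp1 and -0.01 to 0.23 for Jam2. Where an alternative had its own interval, that of Tjp1 moved below 0 with a gate of 1% (-0.33, -0.60 to -0.07) and that of Ocln above 0 with at least 1000 UMIs (0.08 to 0.68), while that of Esam came to include 0 with a gate of 2%, at least 1000 UMIs and naive TRAIL+; naive TRAIL+ also brought 0 into that of Cldn5 and put that of Pecam1 above 0. Cdh5 was past 1.5-fold, as 1 of the 7 genes, with a gate of 1%, a gate of 2%, a gate without Ly6c1 and TMM factors; no other of the 7 passed it in the alternatives for which this was counted. At least 1000 UMIs gave log2 ratios of -0.19 for Cldn5, -0.032 for Esam and 0.38 for Ocln. Ocln was at 0.40 with a gate of 2% and -0.24 with barcodes thinned to 500 UMIs. With naive TRAIL+ as the naive library, an alternative chosen after seeing the data, Cldn5 was at -0.12 and Pecam1 at 0.50. Under TMM factors the all-gene median shifted by -0.10 (log2), Cldn5 was at -0.47, and Ocln and Jam2 fell on the other side of 0, as Ocln also did under DESeq2 factors; its split was 233 genes higher and 649 lower (26.4% of calls higher), against 331 and 458 (42.0%) with total UMIs. Cldn5 as a percentage of the 7 genes' UMIs in naive TRAIL- was 55.7 with a gate of 1%, 56.3 with a gate of 2% and 52.8 with at least 1000 UMIs. Genes past 1.5-fold numbered 804 higher and 820 lower with a gate of 2%, 922 and 1089 at a minimum of 20 CPM, and 3119 and 3233 with no minimum beyond 3 UMIs. Junction list genes past it were 6 higher and 6 lower at 20 CPM and 8 and 13 with no minimum; 1, 5 and 7 were lower with a gate of 1%, a gate of 2% and at least 1000 UMIs, against 3. Regulator genes at least 1.5-fold higher were 1 with each of the gates of 1% and 2%, without Ly6c1 and on other endothelial genes, and with at least 1000 UMIs, and 2 after thinning, against 0, while 8 to 15 were lower under every alternative run. Over all genes, 498 were lower with a gate of 1% and 586 with at least 1000 UMIs, against 458. The numbers of genes compared under these gates and minimums were not kept. The list counts under them therefore have no share over all genes beside them and are not read against a background. The cause of these differences between settings was not tested. The naive TRAIL+ values are limited by its 53 endothelial barcodes, with 19 Jam2 and 21 Ocln UMIs.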
